A study of Mus musculus with 6 samples.

Results

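Cyclin-dependent kinase inhibitors and D-type cyclins set opposing controls on the G1 phase of the cell cycle, and 10 genes of these families were followed here in type II cells isolated from mouse lung, the surfactant-making cells of the alveolar epithelium. The genes were Cdkn1a, Cdkn1b and Cdkn1c of the CIP/KIP family, Cdkn2a, Cdkn2b, Cdkn2c and Cdkn2d of the INK4 family, and the D cyclins Ccnd1, Ccnd2 and Ccnd3. They were taken as every probe set whose platform annotation names exactly 1 of these symbols, which gave 22 probe sets for 10 of the 18193 genes that a probe set of the array names alone. The families were chosen by the log2 signal of Cdkn1c, which was lower in the Insig1-deleted group of these same arrays, so its values and any count that holds it describe that choice and are no independent evidence.

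D cyclins bind and activate CDK4 and CDK6, which phosphorylate the retinoblastoma protein and so release E2F transcription factors to drive entry into S phase. INK4 proteins bind CDK4 and CDK6 and block their union with D cyclins, whereas CIP/KIP proteins bind whole cyclin and kinase complexes and are best known for inhibiting CDK2. Type II cells are mostly quiescent in the adult lung and re-enter the cycle as progenitors after injury, and Cdkn1c is an imprinted gene that is expressed from the maternal copy.

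The control isolates came from Insig1 flox/flox, Insig2 -/- mice, which lacked either the SpC-rTTA driver or the Otet-CRE transgene and so kept Insig1. The deleted isolates came from Insig1 ∆/∆, Insig2 -/- mice, which carried SpC-rTTA and Otet-CRE together with the floxed alleles, so that doxycycline let an activator made from the surfactant protein C promoter switch on Cre. Both groups lacked Insig2 throughout, were aged 2 months, and carry a label of doxycycline from E6.5 to E12.5. INSIG proteins hold SREBP, the transcription factor of sterol and fatty acid synthesis genes, in the endoplasmic reticulum, and the comparison asks what changes when Insig1 is lost as well. No group had the complete Cre system with Insig1 intact, so effects of Cre and of Insig1 loss cannot be told apart. Each group held 3 pools of RNA, which the design text calls independent without a count of the mice behind them.

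Signals below are linear probe set intensities, and log2 differences are deleted minus control. Of 12 type II cell markers 11 had a probe set of their own, all past the filter on dim signals, and their summed signal was 773740 to 923084 in deleted and 792396 to 944795 in control pools. The Insig1 signal ran from 1252.5 to 1750.4 in deleted and from 2300.1 to 3325.2 in control pools, although no source used here places that probe set inside or outside the deleted exons. Control replicate 3 stood apart on the first principal component (-39.1, where the other 5 pools lay between -12.9 and 18.7), and had the lowest array weight (0.437). In bulk RNA of an isolate, fewer cells of a type and less RNA per cell cannot be told apart.

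Over all 12952 genes tested, each by its brightest probe set, limma called 84 at an adjusted p under 0.05, or 0.649%. Of the 10 inhibitor and cyclin genes 9 were tested, and 1 of these was called, Cdkn1c itself, where 0.0232% of all genes were called lower. Cdkn2a, which encodes the p16 and ARF tumour suppressor proteins, lay below the filter of 271 on its only probe set and was not tested. The other 8 genes divided into 5 with log2 differences above 0 and 3 below (49.1% of all genes lay above 0), none of them called, with 2 at an unadjusted p under 0.05 in limma, as were 12.1% of all genes. The median log2 difference of the 9 genes was 0.040, and that of all genes tested was -0.0049. With the arrays shifted to a common median, which moved the median of all genes to 0.074, all of the 9 genes but Cdkn1c lay above 0. So did 8077 of all 12952 genes. Groups did not overlap for 3 of the 9 genes, which was so for 17.1% of all genes, namely Cdkn1c (lower, as were 7.90%), Ccnd1 and Cdkn2b (both higher, as were 9.20%).

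**Figure D1:**
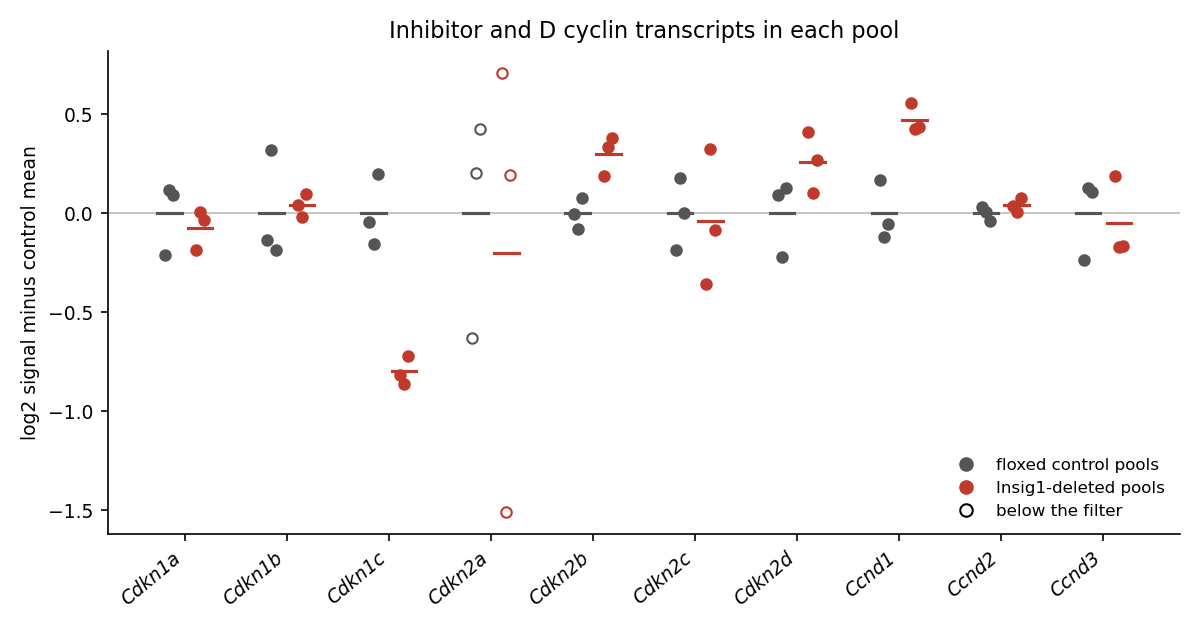
Log2 signal of the brightest probe set of each gene in each pool, minus the mean of the 3 control pools (vertical axis), for the 10 genes along the horizontal axis; bars are group means and open circles mark Cdkn2a, which lay below the filter. Cdkn1c sits near -0.80 in the deleted pools and Ccnd1 near 0.47, while both groups of Ccnd2 lie within a narrow band around 0.

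Cdkn1c, whose protein restrains cycling in many embryonic tissues, had 1 probe set. Its signal was 3577.2, 3308.7 and 4222.2 in control replicates 1, 2 and 3, and 2092.8, 2030.5 and 2235.9 in deleted replicates 1, 2 and 3. No deleted pool reached the lowest control pool, and the highest control value belonged to replicate 3, the pool that stood apart. The means were 2120 ± 105 (SD, n = 3) in deleted and 3703 ± 470 (SD, n = 3) in control pools, so that the deleted level was 57.5% of control (log2 difference -0.80 ± 0.13, SE). Without control replicate 3 the difference was -0.70 ± 0.13. With the arrays shifted to a common median it was -0.72, and across all alternatives it ran from -0.88 to -0.70. It was no longer called without control replicate 1, without deleted replicate 1, 2 or 3, without an intensity trend or with arrays shifted to a common median, nor among all 27022 probe sets, where limma called 0 of the families' 20 probe sets past the filter and 0.322% of all probe sets. An unadjusted p under 0.05 was found for 6 of the 20 (3 of them of Ccnd1) and for 10.2% of all probe sets.

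Cdkn1a, the CIP/KIP gene best known as a p53 target, had 2 probe sets that did not move alike. The brighter stood at 23009.4, 28964.4 and 28435.6 in control replicates 1 to 3 and at 23439.7, 26796.3 and 26016.2 in deleted replicates 1 to 3. These ranges overlapped and the log2 difference was -0.07 ± 0.12 (SE, adjusted p = 0.87, limma), turning to 0.0074 with the arrays shifted to a common median. The dimmer stood at 1563.3, 1632.5 and 2404.8 in control pools and at 2140.6, 2785.3 and 2603.4 in deleted pools. Its highest control value, again that of replicate 3, lay above the lowest deleted value, and its log2 difference was 0.45 ± 0.19 (SE) with an adjusted p of 0.48 among all probe sets by limma.

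RefSeq's promoter windows (250 bases before to 50 after a start, assembly GRCm38.p6) cover 7 of the 10 genes with 11 windows, and not Cdkn1c, Ccnd1 and Ccnd2. Cdkn1a has a pair of windows, printed here because its probe sets differed and because only the upstream one holds paired p53 core letters. Neither probe set was assigned to a start here, and whether the windows bear on the values was not tested. The upstream window lies at chr17:29090729-29091028 on the plus strand, and capitals mark its match to the paired p53 core letters, which are CATG, a gap of 6 bases and CATG again. The downstream window lies at chr17:29093519-29093818 on the plus strand, and capitals mark GGGCGG, the GC box bound by SP1, on either strand.
Cdkn1a upstream: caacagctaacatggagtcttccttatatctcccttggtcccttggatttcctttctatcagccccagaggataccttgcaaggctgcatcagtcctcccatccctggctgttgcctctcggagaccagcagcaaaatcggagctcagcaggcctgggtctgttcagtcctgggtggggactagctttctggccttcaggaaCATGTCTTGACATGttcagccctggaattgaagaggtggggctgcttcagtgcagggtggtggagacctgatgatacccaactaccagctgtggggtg
Cdkn1a downstream: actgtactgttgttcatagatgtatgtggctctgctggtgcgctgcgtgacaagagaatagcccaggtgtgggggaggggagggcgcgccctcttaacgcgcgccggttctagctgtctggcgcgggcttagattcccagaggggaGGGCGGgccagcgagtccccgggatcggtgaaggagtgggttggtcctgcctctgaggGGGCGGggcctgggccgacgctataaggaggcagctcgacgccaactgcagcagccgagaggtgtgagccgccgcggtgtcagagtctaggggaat
The paired p53 core letters were found in 0.712% of all 32851 windows of 300 bases (both strands searched), and in 1 of the 11 windows of these families. Of other p53-linked genes, Mdm2, which encodes the ligase that degrades p53 and is itself a p53 target, was named after its values were seen. It had 3 probe sets with log2 differences from -0.63 to -0.24, and its brightest gave -0.35 ± 0.20 (SE, adjusted p = 0.51, limma) with overlapping groups. The next, at -0.24, was lower without overlap, as were 7.88% of all probe sets. The dimmest, at -0.63, overlapped and had a mean signal of 305.7, near the filter of 271. Without control replicate 2, the lowest control pool on the brightest probe set, Mdm2 was called lower (-0.60, adjusted p = 0.038, limma). That fit called 293 of 12961 genes lower, and the main fit 3 of 12952.

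Cdkn1b, which slows exit from quiescence and is removed by the SKP2 ubiquitin ligase, showed overlapping groups. Its bright probe set stood at 3118.4, 4287.5 and 3013.8 in control replicates 1 to 3 and at 3526.6, 3388.9 and 3666.6 in deleted replicates 1 to 3. All 3 deleted values fell inside the control range, with a log2 difference of 0.04 ± 0.15 (SE, adjusted p = 0.95, limma). The other Cdkn1b probe set lay below the filter, with means of 118.9 in deleted and 139.7 in control pools. Among the CIP/KIP genes the differences were thus -0.80 for Cdkn1c, and -0.07 and 0.04 on the bright probe sets of Cdkn1a and Cdkn1b; whether they differ from one another was not tested, since Cdkn1c was chosen for its value.

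Of the INK4 genes, Cdkn2b, known as a TGF-beta-induced inhibitor, was higher in all 3 deleted pools. Its probe set stood at 2073.6, 1967.1 and 2193.8 in control replicates 1 to 3 and at 2367.7, 2622.4 and 2702.1 in deleted replicates 1 to 3. The groups did not overlap, and neither did they with quantile normalization or arrays shifted to a common median, but the difference was small, at log2 0.30 ± 0.13 (SE, 1.23-fold), and missed the threshold (adjusted p = 0.38, limma). Cdkn2d stood at 1845.1, 1488.4 and 1894.3 in control replicates 1 to 3 and at 2300.1, 1859.4 and 2086.9 in deleted replicates 1 to 3. Its lowest deleted value lay just under the highest control value, and the difference was 0.26 ± 0.15 (SE, adjusted p = 0.54, limma). Without control replicate 3 the difference was 0.34 for Cdkn2b and 0.32 for Cdkn2d, and without control replicate 2 that of Cdkn2d was 0.15 (adjusted p = 0.67, limma).

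Cdkn2c, an INK4 gene with broad expression in developing and adult tissues, had deleted values of 907.8, 1457.6 and 1097.8 on either side of its control values of 1023.9, 1316.1 and 1165.4. The log2 difference was -0.04 ± 0.21 (SE, adjusted p = 0.97, limma), and it was 0.041 with the arrays shifted to a common median. Cdkn2a was dim in all pools, at 81.5, 145.1 and 169.7 in control and 206.4, 44.3 and 144.3 in deleted replicates 1 to 3. The lowest and the highest of its 6 values both belonged to deleted pools, so no direction was read from it. The Cdkn2b window lies at chr4:89310983-89311282 on the minus strand of GRCm38.p6 and is shown as that of the INK4 gene whose groups did not overlap, with its GC box in capitals.
Cdkn2b: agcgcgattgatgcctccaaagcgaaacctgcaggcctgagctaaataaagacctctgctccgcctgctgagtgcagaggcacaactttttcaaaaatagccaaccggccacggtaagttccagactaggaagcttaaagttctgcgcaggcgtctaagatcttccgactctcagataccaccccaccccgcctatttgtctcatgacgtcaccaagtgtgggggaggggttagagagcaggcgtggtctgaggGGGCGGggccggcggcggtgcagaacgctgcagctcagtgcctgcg
GC boxes were found in 9 of the 11 windows and in 35.7% of all windows. E2F letters (TTTNNCGC, both strands) were found in 2 of the 11, both of Cdkn2a, and in 5.17% of all windows, and the sterol regulatory element letters TCACNCCAC, on either strand, in 0 of the 11 and 1.24% of all. These are matches of letters only, and no binding was measured.

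Ccnd1, the D cyclin most closely tied to growth factor signalling, was higher in deleted pools on each of its 3 probe sets. The brightest stood at 10071, 8242.2 and 8638.2 in control replicates 1 to 3 and at 13150.6, 12012 and 12112.8 in deleted replicates 1 to 3. The next stood at 6839.1, 6740 and 5825 in control and at 8741.3, 10106.1 and 7917.1 in deleted replicates. The dimmest stood at 2379.3, 2985.5 and 1773.5 in control and at 3088.7, 3371.7 and 3475.2 in deleted replicates. On all 3 probe sets every deleted pool lay above every control pool, as 7.69% of all probe sets did, and this was so too with quantile normalization and with arrays shifted to a common median. The probe sets read the same RNA, so they are repeat measures of 1 gene and not further replicates.

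The log2 differences of the Ccnd1 probe sets were 0.47 ± 0.11, 0.46 ± 0.13 and 0.51 ± 0.19 (SE), or 1.39-fold on the brightest. The brightest missed the threshold over all genes (adjusted p = 0.16, limma), and its adjusted p ran from 0.088 to 0.48 over the alternatives, in all of which the difference was above 0. Without control replicate 3 it was 0.45 ± 0.12. Summed macrophage markers were higher in the same pools, at 135814 to 156560 in deleted against 57411 to 81800 in control pools over 15 genes, of which 8 were called higher by limma (0.625% of all genes were). Their part in the Ccnd1 values was not tested.

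Ccnd2, a D cyclin prominent in several adult and haematopoietic tissues, differed little between groups on its brightest probe set. That probe set stood at 6716.1, 6582.2 and 6377.3 in control replicates 1 to 3 and at 6719.1, 6580.2 and 6929.6 in deleted replicates 1 to 3, a log2 difference of 0.04 ± 0.10 (SE, adjusted p = 0.92, limma). Over its 7 probe sets the differences ran from -0.24 to 0.08, with 5 below 0 and 2 above. One of them, of a kind whose probes may match other sequences, was lower without overlap (-0.13, as were 7.88% of all probe sets), and overlapped after a shift of the arrays to a common median. The brightest probe sets of Cdk4, Cdc20, Rrm2 and Meg3, given below, are of the same kind. The SDs of log2 signals within groups were 0.038 for the brightest Ccnd2 probe set in each group, the smallest of the 9 genes.

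Ccnd3, the D cyclin with the widest expression, stood at 3729.6, 4786 and 4716.6 in control replicates 1 to 3 and at 4998, 3899.8 and 3914.9 in deleted replicates 1 to 3 on its brightest probe set. The highest value belonged to a deleted pool and the lowest to a control pool, and the log2 difference was -0.05 ± 0.15 (SE, adjusted p = 0.94, limma), turning to 0.031 with the arrays shifted to a common median. Its dimmer probe sets gave -0.18 and -0.50, the latter at a mean of 355.9 in deleted and 528.6 in control pools with overlapping groups.

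**Figure D2:**
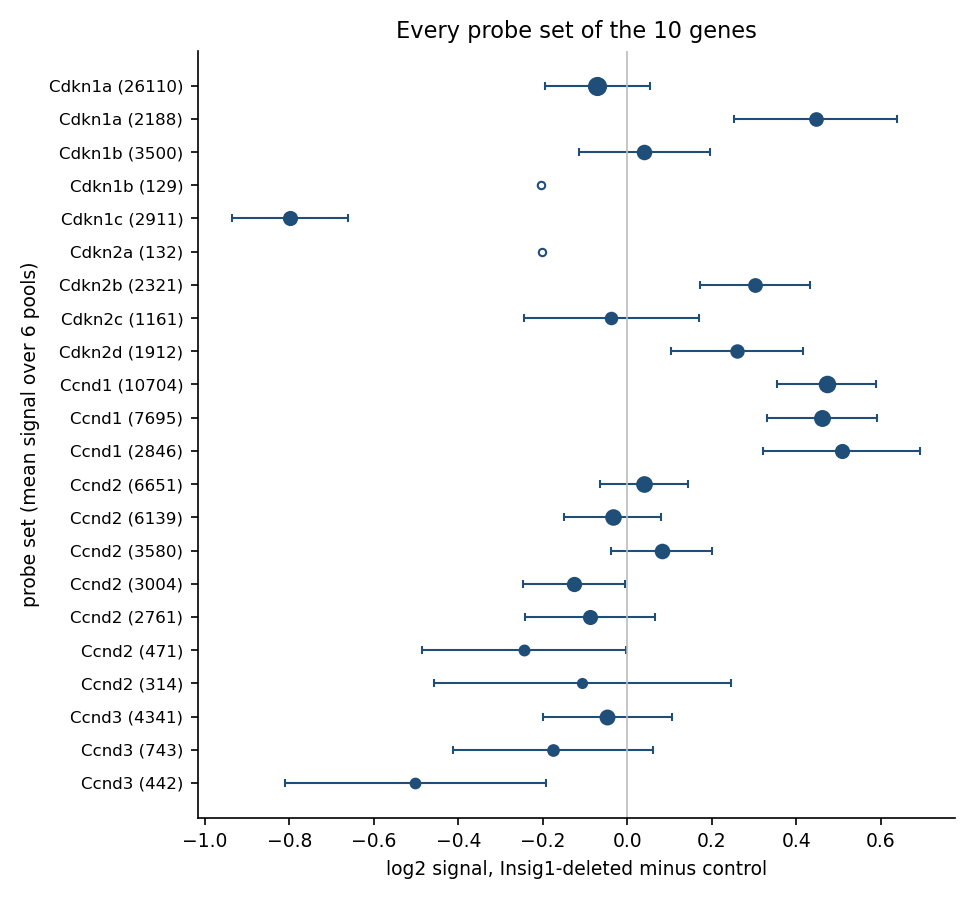
Log2 difference, deleted minus control, of all 22 probe sets of the 10 genes (horizontal axis), with the moderated standard error as bars for the 20 past the filter; labels give the gene and the mean signal over 6 pools, larger points are brighter and open points lay below the filter. The 3 Ccnd1 probe sets lie together between 0.46 and 0.51, while the 2 of Cdkn1a are apart at -0.07 and 0.45.

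The genes whose log2 signals followed Cdkn1c most closely over the 6 pools were found by the root mean square difference between values centred on each gene's own mean, over 12353 genes. Sox2, a transcription factor gene of airway epithelium, was nearest at 0.046 log2 units, against a median of 0.46 over those genes. It was followed by Inha, an inhibin subunit gene (0.072), Wdr31 (0.087), Apobec4 (0.102), Scg2, which encodes a secretory granule protein (0.103), and Spef2, a gene of the sperm tail and motile cilia (0.114). The Sox2 signal was 6497.5, 6254.7 and 8010.3 in control replicates 1 to 3 and 4021.5, 3548.6 and 4097.9 in deleted replicates 1 to 3. In both Sox2 and Cdkn1c control replicate 3 was the highest pool and deleted replicate 2 the lowest. The ranking picked genes for such likeness over these same 6 pools, so the shared order is no independent evidence. Inha, Apobec4 and Scg2 were dim, with deleted means of 304.1, 236.2 and 286.4.

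Airway markers were read beside Cdkn1c. All 12 had log2 differences below 0 with and without a shift to a common median (median -0.55). Of all 12952 genes, 6594 lay below 0 without the shift and 4875 with it. Limma called 2 of the 12 lower (0.0232% of all genes), the ciliated cell gene Ccdc153 (-1.18) and Sox2, which is also the gene nearest to Cdkn1c. At an unadjusted p under 0.05 in limma 6 of the 12 were lower, as were 6.02% of all genes. For 3 of the 12 the groups were lower without overlap, as for 7.90% of all genes. The secretory cell genes Scgb1a1, Cyp2f2 and Scgb3a2 gave -0.11, -0.17 and -0.23, with none called. The summed signal of the 12 was 396843 to 490001 in deleted and 461196 to 602652 in control pools, ranges that overlapped, and none was at 0. Those 3 secretory genes made up 79.5% of the mean sum in deleted and 75.5% in control pools. Scgb1a1 gave the highest signal of any probe set in each of the 6 pools. The sum therefore mostly follows these genes and says little about the dimmer airway markers. Mesothelial markers lay below 0 in 5 of 5 genes (median -0.41), with none called by limma and 0 at an unadjusted p under 0.05. Their summed signal was 4832 to 6909 in deleted pools and 5082, 5784 and 13333 in control replicates 1 to 3, so that only control replicate 3 lay above the deleted range. Mesenchymal markers had 8 of 12 below 0 (median -0.10, summed signal 45246 to 70485 against 53226 to 74367). None was called, and 1 was lower by an unadjusted p below 0.05 (6.02% of all genes were). After the shift to a common median 6 of 12 lay below 0. The part of these cells in the Cdkn1c values was not tested.

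**Figure D3:**
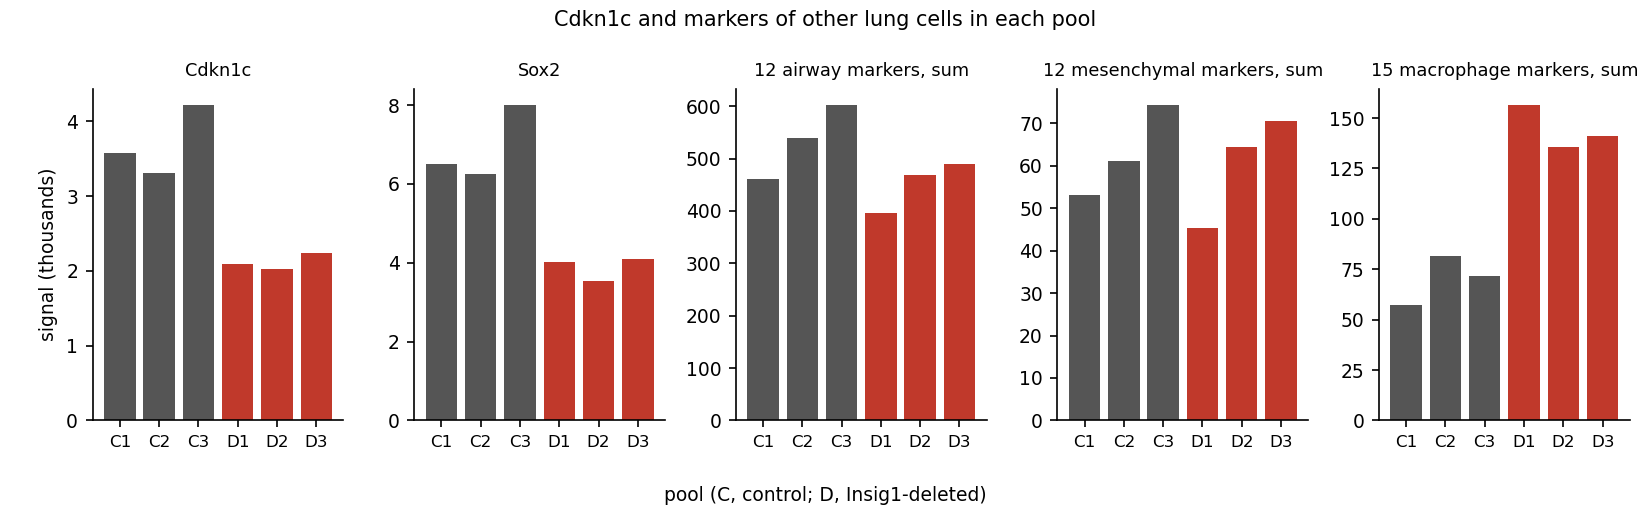
Signal, scaled as labelled (vertical axes, each starting at 0), in the 3 control (grey) and 3 deleted (red) pools for Cdkn1c, Sox2 and the summed airway, mesenchymal and macrophage markers. Cdkn1c and Sox2 are lower in every deleted pool, the airway and mesenchymal sums overlap between groups, and the macrophage sums are higher in every deleted pool.

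The kinases, cyclins and E2F factors downstream of these regulators were read from a list of 22 genes of the G1 to S transition, 21 of them tested. None was called by limma, 1 was higher and 0 lower by an unadjusted p below 0.05 (6.05% and 6.02% of all genes), and the median log2 difference was -0.012. Of the 21, 9 lay above 0, as did 49.1% of all genes. After the shift to a common median 14 did, as did 8077 of all 12952 genes. E2f4, an E2F factor known mainly as a repressor in quiescent cells, was at 907.3, 730.1 and 847.3 in control and 993.8, 1317.9 and 1281.6 in deleted replicates 1 to 3 (log2 0.53 ± 0.18, SE, adjusted p = 0.31, limma). Its groups did not overlap. Next by p came Tfdp1, the E2F partner (-0.23), Cdk6, a kinase of the D cyclins (0.16, but -0.25 on a dimmer probe set), and Ccnh, a subunit of the CDK-activating kinase (-0.19). Cdk4, the other D cyclin kinase, which was named after its values were seen, gave -0.13 on its brightest probe set and between -0.13 and -0.02 over all 3.

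Regulators of the inhibitors and of the D cyclins gave 15 tested genes of 16, with none called by limma. An unadjusted p under 0.05 was found for 2 genes, both higher (6.05% of all genes were), and the median was -0.09. The lowest p belonged to Cks1b, the cofactor with which SKP2 marks the Cdkn1b protein for degradation. Cks1b stood at 4811, 5643.9 and 4531.8 in control replicates 1 to 3 and at 7089.2, 7110.4 and 7748.5 in deleted replicates 1 to 3, with no overlap (log2 0.56 ± 0.12, SE, adjusted p = 0.11, limma; 0.28 on a dimmer probe set). It was called without control replicate 2 (0.65, adjusted p = 0.019, limma) and with array weights. Those fits called 184 of 12961 and 186 of 12952 genes higher, and the main fit 81 of 12952. Skp2 itself was dim (log2 0.70 ± 0.30, SE, adjusted p = 0.40, limma), and its other probe sets past the filter gave 0.05 to 0.36.

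Among Polycomb genes, which silence Cdkn2a and Cdkn2b in dividing cells, Ezh2 had a log2 difference of 0.24 and Cbx7 of -0.30. Limma called neither, though their groups did not overlap, as for 17.1% of all genes (those of Cbx7 did after the shift to a common median). Bmi1 and Rnf2, Polycomb genes of the same list named after their values were seen, gave -0.14 and -0.02 with overlapping groups. S and M phase genes, the output of this pathway, lay above 0 in 17 of 18 tested genes (median 0.39). Of all genes 49.1% lay above 0. Limma called none of the 18, and its unadjusted p fell below 0.05 for 8, all of them higher (6.05% of all genes were). For 7 of the 18 every deleted pool lay above every control pool, against 9.20% of all genes. After the shift to a common median all 18 lay above 0, as did 8077 of all 12952 genes. Mki67, the proliferation marker, stood at 0.86 ± 0.26 (SE, adjusted p = 0.24), the anaphase activator gene Cdc20 at 0.63, the replicative helicase gene Mcm3 at 0.58 and the ribonucleotide reductase gene Rrm2 at 0.42. Without control replicate 2, which had the highest control signals of all 4 genes, Mki67 (1.13, adjusted p = 0.026, limma) and Cdc20 (0.86, adjusted p = 0.034, limma) were called. That fit called 184 of 12961 genes higher, and the main fit 81 of 12952. Macrophage markers (median 0.996, 8 of 15 called higher, as were 0.625% of all genes) were higher in the same pools. Lymphocyte markers had a median of 0.48, with 0 of 10 called by limma. At an unadjusted p under 0.05 in limma 3 of the 10 were higher, as were 6.05% of all genes. Their summed signals were 11787 to 16628 in deleted and 7356 to 14013 in control pools. The part of macrophages or lymphocytes in the S and M phase list was not tested.

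Because Cdkn1c is imprinted, 23 imprinted genes were read as well, of which 16 were tested. None was called by limma, and 4 had an unadjusted p under 0.05, all of them lower (6.02% of all genes were). Log2 differences lay below 0 in 13 of 16 (median -0.13) and in 6594 of all 12952 genes. With the arrays shifted to a common median 1 gene was lower at that p and 9 of 16 lay below 0. Over all 12952 genes these counts were 406 and 4875. Meg3, a maternally expressed noncoding RNA gene, stood at 4558.8, 5571.8 and 4656 in control replicates 1 to 3 and at 3255.1, 3454.8 and 3075 in deleted replicates 1 to 3. The groups did not overlap (log2 -0.59 ± 0.12, SE, adjusted p = 0.098, limma), and 8 of its 9 probe sets past the filter gave values below 0, from -0.99 to 0.10 in all. With array weights it was called (adjusted p = 0.045, limma). That fit called 73 of 12952 genes lower, and the main fit 3.

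On their brightest probe sets the zinc finger gene Peg3 gave -0.39, the IGF2 receptor gene Igf2r -0.39 and the growth factor gene Igf2 -0.46. Their groups did not overlap, and limma called none. The gap was narrow for Igf2 (highest deleted 1288.2, lowest control 1292.7) and Igf2r (2787.8 and 2796.5). The other probe set past the filter gave -0.61 for Peg3 and -0.16 for Igf2r, both with overlapping groups. Probe sets below the filter gave 0.40 for Igf2 and from 0.62 to 1.05 for Peg3. Groups were lower without overlap for 5 of the 16 genes, against 7.90% of all genes. After the shift to a common median this was so for 2 of the 16, and for 490 of all 12952 genes. Of the genes in the same imprinted domain as Cdkn1c, named after their values were seen, Phlda2 gave -0.29, Kcnq1ot1 -0.08, Slc22a18 0.08 and Kcnq1 0.34, all with overlapping groups. The part of the airway, mesothelial and mesenchymal cells, whose markers are given beside Cdkn1c, was not tested here either.

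**Figure D4:**
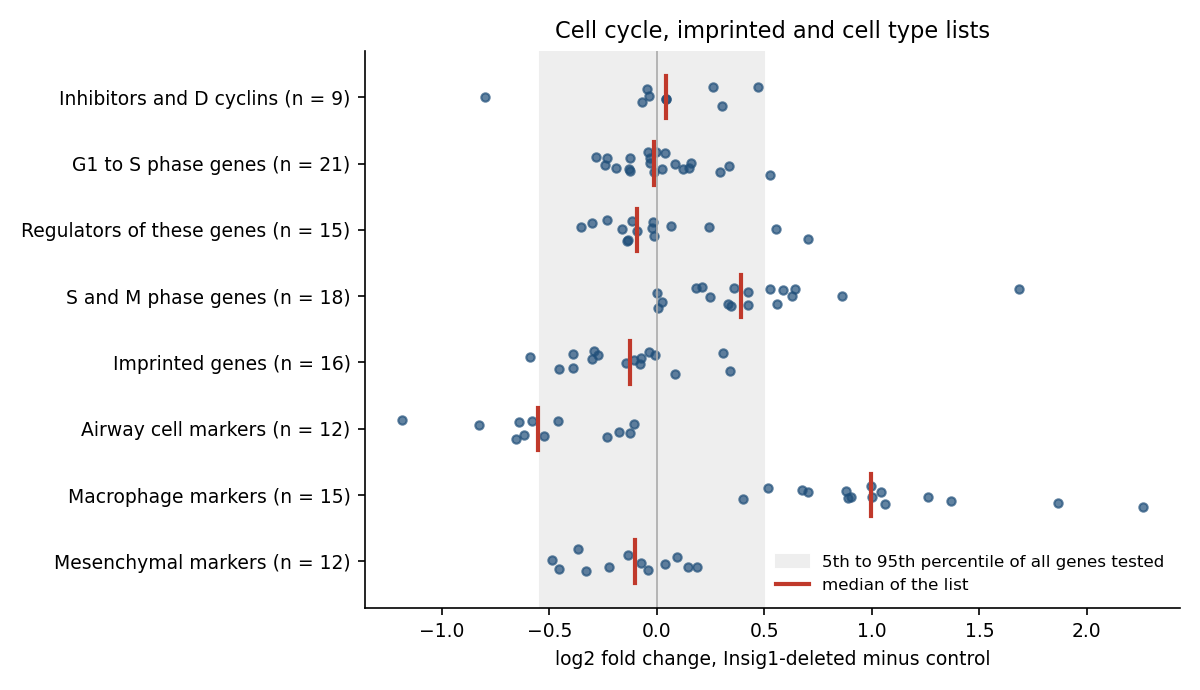
Log2 fold change, deleted minus control, of each tested gene (points) in 8 lists, with the list's median as a red bar and the range from the 5th to the 95th percentile of all tested genes (-0.54 to 0.50) in grey. The S and M phase list (median 0.39) and macrophage markers (0.996) lie to the right and airway markers (-0.55) to the left, while the G1 to S list is centred near 0 and Cdkn1c is the leftmost point of the inhibitors and D cyclins.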

How the data were processed

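Total RNA from 6 isolates of mouse type II cells, 3 pools for each genotype, was hybridised to Affymetrix arrays. The deposited values are probe set intensities on a linear scale, made with MAS5 (version not stated) per the submitters' processing notes. The values show each array scaled to a common trimmed mean of 1500. Of 45101 probe sets 64 were controls, 34945 named 1 gene, 932 several and 9160 none here, by the platform annotation. Values were floored at 1 before log2, with no further normalization. Probe sets with a mean log2 signal under the 40th percentile (8.08, signal 271) were left out, which kept 27022, and each of 12952 genes was represented by its brightest probe set. The comparison used limma 3.58.1 under R 4.3.3 (intensity trend, two-sided, Benjamini-Hochberg over all genes or over all probe sets, threshold 0.05). With 3 pools a group an exact permutation test cannot go below 0.1, so none was run. The p-values measure only the spread between these pools, whose mice are not listed.

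The genes and lists were chosen with earlier results of these data known. Named were all 10 genes of the families, the 4 genes of each other list with the smallest p, and the 6 nearest to Cdkn1c, with exceptions stated. Alternatives were quantile normalization, arrays shifted to a common median, an offset of 16 before log2, a fit without the trend, array weights, leaving out the filter or raising it to the 60th percentile, a replicate block, probe sets averaged, an adjusted p threshold of 0.1 and each pool left out. The steps were tested on simulated data of 12952 genes, with 50 genes changed at each size. They recovered 6% of changes of log2 0.5, 56% of log2 1, 76% of log2 1.5 and 82% of log2 2. Of 117 calls 7 were false. A gene with a difference near 0.5 that was not called can therefore not be read as unchanged. Sequences are RefSeq's. Figures were drawn with matplotlib 3.10.9.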

Additional observations from a re-analysis of the deposited data

How the results depend on the processing

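Over 15 other settings the log2 differences of Cdkn1c (-0.88 to -0.70), Ccnd1 (0.39 to 0.56), Cdkn2b (0.26 to 0.38) and Cdkn2d (0.15 to 0.34) kept their direction. The count of called genes among the inhibitors and D cyclins was 1, and it was 0 with arrays shifted to a common median, 0 without an intensity trend, and 0 to 1 when 1 pool was left out. At the level of probe sets it was 0, but 1 with array weights, 1 with a filter at the 60th percentile, 1 at an adjusted p threshold of 0.1, and 0 to 1 when 1 pool was left out. Called regulators went from 0 to 1 with array weights and to 0 to 2 with 1 pool left out, called S and M phase genes from 0 to 0 to 2 with 1 pool left out, and called imprinted genes from 0 to 1 with array weights and to 1 at a threshold of 0.1; the cause was not tested. Differences near 0 changed sign. With arrays shifted to a common median Ccnd3 was 0.031, Cdkn1a 0.0074 and Cdkn2c 0.041. With array weights Ccnd3 was 0.0017, Cdkn1a 0.039 and Cdkn2c 0.12. With probe sets averaged Ccnd2 was -0.068, Cdkn1a 0.19 and Cdkn1b -0.082. With 1 pool left out Ccnd3 ran from -0.17 to 0.016, Cdkn1b from -0.053 to 0.20 and Cdkn2c from -0.22 to 0.12.

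All genes called numbered 84, and 29 when the intensity trend was dropped, 259 when arrays were weighted, 46, 477 and 171 when control replicate 1, 2 or 3 was left out, and 23, 15 and 31 when deleted replicate 1, 2 or 3 was. Same-numbered pools deviated together weakly (r across genes 0.074, 0.040 and 0.15), and pools of unlike number gave r from -0.13 to 0.052. The labels do not say that pools of the same number belong together, so the numbers were not taken as pairs. With the pool number as a replicate block 132 genes were called, and among the inhibitors and D cyclins the count was 1.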
